A study of Mus musculus with 2 samples.

Results

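The mRNA of 10 circadian clock genes, Per1, Per2, Per3, Dbp, Tef, Nr1d1, Nr1d2, Bhlhe40, Arntl and Clock, was compared in bone marrow (BM) LSKs of Scl/tTA-BA mice at week-0 and week-3. They were chosen by gene symbol from the 34745 genes of the deposited tables, with earlier results of these data known. All 10 had reads in both libraries. LSKs are lineage-negative cells that carry Sca1 and c-Kit on their surface, the marrow fraction that holds the hematopoietic stem cells and early progenitors, and here they were sorted from C57BL/6 mice. In the Scl/tTA-BA line, Scl regulatory sequence drives the transactivator tTA in stem and progenitor cells, and tTA switches on a TRE-driven BCR/ABL (BA) fusion gene once doxycycline is absent (a tet-off system). Both groups carried both transgenes: the week-0 mice were still on doxycycline in the drinking water, and the week-3 mice had been off it for 3 weeks. The age of these mice and the hour of the day at which marrow was taken are not given in the sources used here. Each time point is 1 RNA-seq library of LSKs mixed from 3 mice, so no difference below has a replicate check, and time on BA cannot be told apart from any other difference between the libraries.

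The mammalian clock is a feedback loop of transcription. CLOCK and BMAL1, the product of Arntl, pair up and activate genes that carry E-boxes, among them the Per and Cry genes, whose proteins return to the nucleus and shut the pair off. In a connected loop the nuclear receptors REV-ERBα and REV-ERBβ (Nr1d1, Nr1d2) repress Arntl while RORs activate it, the PAR bZIP factors DBP, TEF and HLF activate genes with D-boxes, and BHLHE40 and BHLHE41 compete at E-boxes. Most of these mRNAs go up and down over the day in many tissues, and Per1, Per2 and Bhlhe40 are also induced within a short time by signals from outside the cell.

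Reads assigned to genes numbered 6356164 in the library of week-0 and 3886695 in that of week-3. A level is given as reads and as the deposited FPKM, and a difference as the log2 ratio of week-3 over week-0, scaled by total reads, which equals the FPKM ratio. Brackets hold exact 95% intervals (Clopper-Pearson for ratios and shares, Poisson for levels), which cover counting error only, since amplified reads are not independent molecules and variation between mice is not in them. A gene is called lower or higher where the ratio is at most 0.5 or at least 2, among 12192 genes with at least 20 reads over both libraries. In a bulk sample, fewer cells of a type and less RNA per cell cannot be told apart. The sort markers Kit (c-Kit) and Ly6a (Sca1) were present at 16.9 and 19.8 FPKM at week-0. At week-3 they stood at 11.5 and 14.8 FPKM. Cd34, which the sort did not use, had 60.9 FPKM at week-0 and 39.9 FPKM at week-3. Flt3, a progenitor receptor also not used in the sort, was called lower at a log2 ratio of -2.02. The mouse genes Bcr and Abl1, whose names the BA fusion carries, had 371 and 108 reads (log2 ratio -1.07, called lower) and 395 and 144 reads (-0.75). These values do not separate transgene reads from those of the mouse genes, so they do not check the induction of BA. Markers of other cells differed between the libraries as well. For the counts that follow, the shares of all genes with enough reads were 15.6% called lower and 10.6% called higher. Of 5 mast cell markers, 4 were called higher (summed level 72.1 and 1737 FPKM). All 5 neutrophil markers were called higher (1358 and 6574 FPKM), and all 4 erythroid markers were called lower (766 and 57.1 FPKM). Of 5 B and plasma cell markers, the 3 with enough reads were called lower (271 and 7.46 FPKM), the 3 T cell markers summed to 4.86 and 1.43 FPKM (Cd3e at 0 at week-3), and 3 of 4 long-term stem cell markers were called lower and 1 higher (11.4 and 4.81 FPKM). The part of these cells in the clock results was not tested.

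Of the 10 clock genes, 5 were called lower at week-3 (Bhlhe40, Per2, Per1, Dbp and Nr1d2) and 1 was called higher (Clock). Among all genes with enough reads, 15.6% were called lower and 10.6% higher. The share of clock genes called lower was thus above that of all genes, and the share called higher, 1 of 10, was near it. Because the 10 were chosen with earlier results of these data known, this does not compare an unselected set with all genes. The remaining 4 genes, Tef, Nr1d1, Arntl and Per3, lay between the limits. The median log2 ratio of the 10 genes was -0.88, against 0.07 for all genes, and 7 of the 10 were below 0. Together they took 0.0965% of the reads at week-0 (6131 reads) and 0.0301% at week-3 (1168 reads), and Per1 held the largest part of both sums. Counting error limits some of these calls: for Per1, Per2 and Bhlhe40 the whole interval lay past the 2-fold limit, whereas those of Dbp, Nr1d2 and Clock reached across it.

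**Figure D1:**
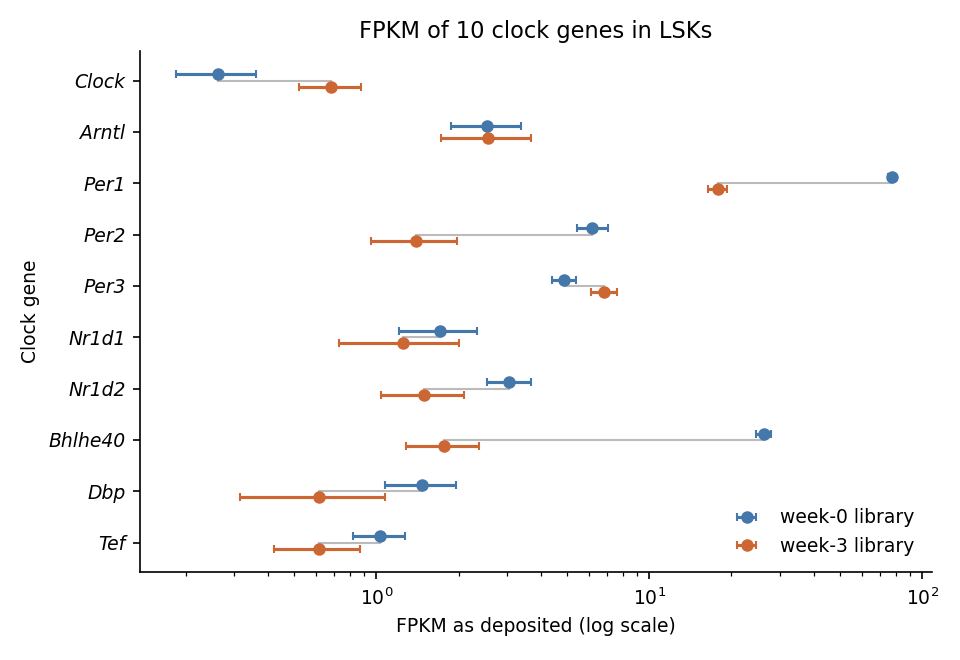
Deposited FPKM (log axis) of the 10 clock genes in the week-0 and week-3 libraries, 1 point per library, with bars for exact 95% Poisson intervals of the reads. Per1 stands at 77.5 and 17.8 FPKM and Bhlhe40 at 26.2 and 1.77 FPKM, while the points of Arntl, 2.55 and 2.57 FPKM, lie at nearly the same place along the FPKM axis.

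**Figure D2:**
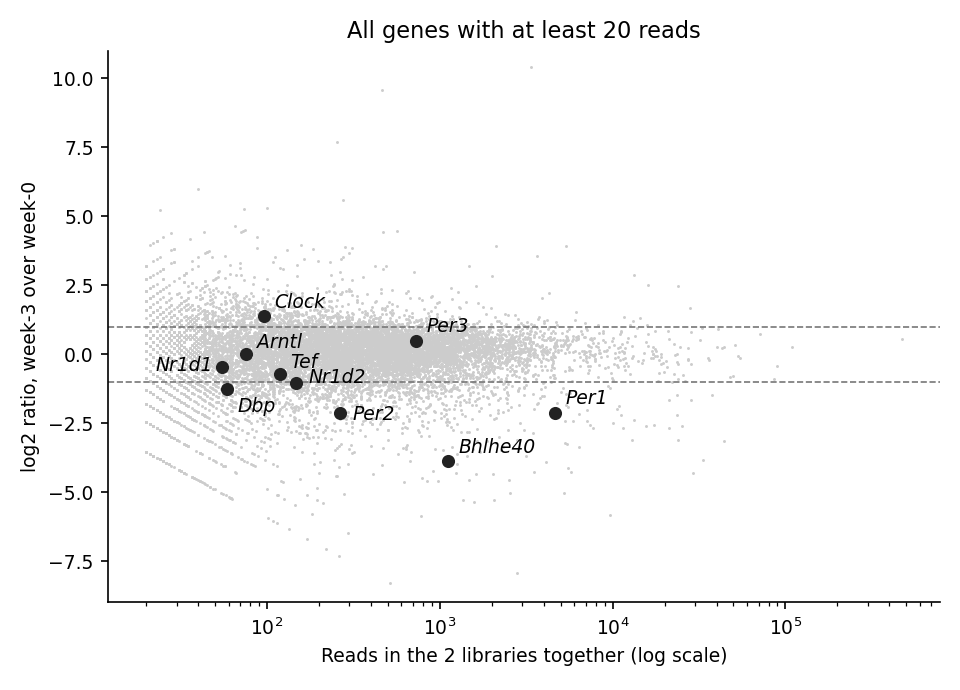
Log2 ratio of week-3 over week-0 against reads over both libraries (log axis), with all genes of at least 20 reads in grey the 10 clock genes named and the 2-fold limits dashed. The 110 genes at 0 reads in a library have no finite ratio and are not drawn. Bhlhe40, at -3.89, lies at a ratio that 216 of the 12192 genes reach or pass, and Clock, at 1.38, lies above the upper 2-fold limit.

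Clock, the DNA-binding partner of BMAL1 (ENSMUSG00000029238, chr5:76209868-76304792, minus strand, GRCm38 as for all positions here), was the gene called higher. It had 37 reads (0.262 FPKM) at week-0 and 59 reads (0.683 FPKM) at week-3. The raw read number was thus larger in the shallower library, and the scaled level was 2.61-fold higher [1.70 to 4.05], a log2 ratio of 1.38 [0.77 to 2.02]. Of the 12192 genes, 650 had a log2 ratio as high or higher. Clock was nevertheless a low gene in both libraries, above 21% of the expressed genes at week-0 and above 32.3% at week-3. The processed pseudogene Ube2n-ps1 lies within the span of Clock on its strand and had 69 and 41 reads, a log2 ratio of -0.04, and Gm43658, also within it, had 4 and 3 reads.

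Arntl, which encodes BMAL1 (ENSMUSG00000055116, chr7:113207465-113314122, plus strand), had 47 reads (2.55 FPKM) at week-0 and 29 reads (2.57 FPKM) at week-3. These levels were the same within counting error: the log2 ratio was 0.01 [-0.71 to 0.71], and its sign turned under both other scalings tried. The interval leaves room for a difference of over 1.5-fold either way. Within the reads of the pair, Clock made up 44.0% [33.2 to 55.3] at week-0 and 67.0% [56.2 to 76.7] at week-3. These intervals lay close without overlapping and cover counting error only. Npas2, which can stand in for CLOCK, had 0 reads in both libraries, and Arntl2, a relative of Arntl, had 0 and 1.

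Per1 (ENSMUSG00000020893, chr11:69095217-69109960, plus strand), a repressor of CLOCK:BMAL1 that is also induced by glucocorticoid and cAMP signals, was the clock gene with the most reads in both libraries. It had 4069 reads (77.5 FPKM) at week-0 and 572 reads (17.8 FPKM) at week-3. This is a 4.35-fold lower level [3.98 to 4.76], a log2 ratio of -2.12 [-2.25 to -1.99], and 697 of all genes had a ratio as low or lower. Its place among expressed genes went from above 96.3% of them to above 85.6%.

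The 250 bases before a RefSeq start of Per1 are shown because they hold both an E-box and a ROR/REV-ERB motif. The motif letters searched, on both strands and in windows from 250 bases before to 50 bases after each start, were CACGTG (E-box), TTATGTAA (D-box), AGGTCA (the core that ROR and REV-ERB receptors bind) and TGACGTCA (CRE), and none of these overlapped in the sequences below. Capitals mark a match, read from the gene's own strand, so that TGACCT is the reverse complement of AGGTCA. The sequence is RefSeq's on GRCm38.p6, chr11:69098699-69098948, plus strand.
Per1: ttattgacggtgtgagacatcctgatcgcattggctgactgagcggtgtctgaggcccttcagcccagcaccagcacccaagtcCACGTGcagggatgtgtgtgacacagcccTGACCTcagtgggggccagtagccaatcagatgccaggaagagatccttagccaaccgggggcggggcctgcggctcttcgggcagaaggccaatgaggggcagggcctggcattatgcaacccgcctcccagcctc
The E-box begins 166 bases before the start and the TGACCT 137 bases before it. The window of another RefSeq start of Per1, chr11:69099902-69100201, held none of the letters searched. A match of letters is a description and does not show that a factor binds there. Of 32851 such windows in the RefSeq table, 7.15% held the E-box, 0.938% the D-box, 16.3% the ROR/REV-ERB motif and 1.79% the CRE.

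Per2 (ENSMUSG00000055866, chr1:91415982-91459324, minus strand), the paralog whose loss disturbs the rhythm most plainly in mice, had 232 reads (6.18 FPKM) at week-0 and 32 reads (1.39 FPKM) at week-3. The level was 4.43-fold lower [3.05 to 6.63], a log2 ratio of -2.15 [-2.73 to -1.61]. Per1 and Per2 thus had nearly equal ratios. By the deposited FPKM, whose gene lengths are treated below, Per1 was 12.5 times Per2 at week-0 and 12.8 times at week-3.

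Per3 (ENSMUSG00000028957, chr4:151003652-151044665, minus strand), the paralog least needed for rhythm, did not go with the others. It had 394 reads (4.88 FPKM) at week-0 and 337 reads (6.82 FPKM) at week-3, a level 1.40-fold higher [1.21 to 1.62] and a log2 ratio of 0.48 [0.27 to 0.70], which was not called. Its interval did not overlap those of Per1 and Per2. Of the reads on the 3 Per genes, 4695 at week-0 and 941 at week-3, Per3 took 8.39% [7.61 to 9.22] at week-0 and 35.8% [32.7 to 39.0] at week-3. Per1 took 86.7% [85.7 to 87.6] and 60.8% [57.6 to 63.9], and Per2 4.94% [4.34 to 5.60] and 3.40% [2.34 to 4.77]. These are shares of reads, not per length. In FPKM, Per1 stood 15.9 times above Per3 at week-0 and 2.61 times above it at week-3. Per3 lies within the span of Camta1, on the same strand, which had 139 and 105 reads and a log2 ratio of 0.30 [-0.07 to 0.68].

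The 250 bases before the start of Per3 are shown because Per3 was the clock gene with D-boxes in its window. They are chr4:151044666-151044915, read from the minus strand, and the capitals mark the D-box letters TTATGTAA.
Per3: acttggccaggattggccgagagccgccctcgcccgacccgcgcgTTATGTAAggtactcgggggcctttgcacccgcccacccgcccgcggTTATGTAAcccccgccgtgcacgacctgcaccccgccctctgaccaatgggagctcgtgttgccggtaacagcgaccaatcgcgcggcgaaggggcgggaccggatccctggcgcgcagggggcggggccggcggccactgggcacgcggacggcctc
The copies begin 205 and 158 bases before the start, and the sequence held no E-box of the letters CACGTG.

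**Figure D3:**
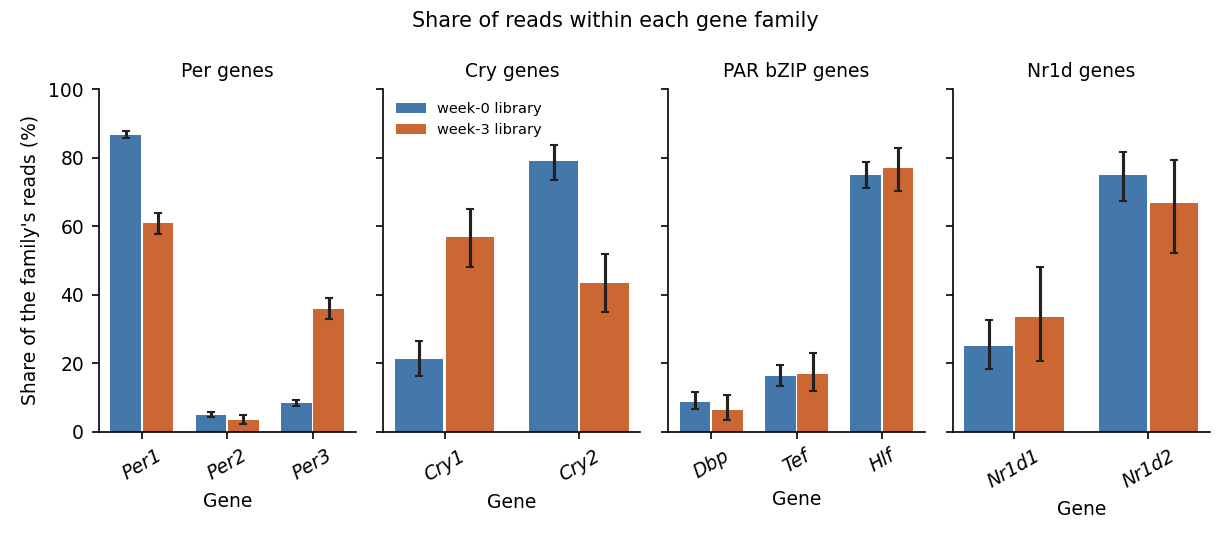
Percentage of the reads on each gene family that each of its genes took in the week-0 and week-3 libraries, with exact 95% Clopper-Pearson intervals. Per3 goes from 8.39% to 35.8% of the Per reads and Cry1 from 21.1% to 56.7% of the Cry reads, whereas the intervals of the PAR bZIP and Nr1d genes overlap between libraries.

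Nr1d2, which encodes the repressor REV-ERBβ (ENSMUSG00000021775, chr14:18204054-18239127, minus strand), had 114 reads (3.07 FPKM) at week-0 and 34 reads (1.5 FPKM) at week-3. It was 2.05-fold lower [1.39 to 3.10], a log2 ratio of -1.04 [-1.63 to -0.47], just past the limit. Nr1d1, for REV-ERBα (ENSMUSG00000020889, chr11:98767932-98775333, minus strand), had 38 reads (1.71 FPKM) and 17 reads (1.25 FPKM). Its log2 ratio, -0.45 [-1.37 to 0.41], did not differ from equal levels beyond counting error, and its interval overlapped that of Nr1d2. Nr1d2 took 75.0% of the reads of the pair at week-0 and 66.7% at week-3, with overlapping intervals. Nr1d1 shares 1075 bases with Thra, a thyroid hormone receptor gene on the opposite strand, which had 61 and 107 reads and was called higher at a log2 ratio of 1.52 [1.05 to 1.998]. Whether the counting used strand is not given in the sources used here, so reads of the shared stretch may not be assigned to the right gene.

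The 250 bases before the start of Nr1d2 are shown for the ROR/REV-ERB letters in them, AGGTCA in capitals. They are chr14:18239107-18239356, read from the minus strand.
Nr1d2: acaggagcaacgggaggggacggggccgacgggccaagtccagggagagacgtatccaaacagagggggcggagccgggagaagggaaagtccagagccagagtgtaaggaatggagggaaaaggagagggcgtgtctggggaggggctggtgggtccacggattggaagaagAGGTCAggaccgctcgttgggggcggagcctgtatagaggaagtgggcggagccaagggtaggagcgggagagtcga
The motif begins 77 bases before the start. Over all the windows, 8 of the 10 clock genes had an entry, with 13 windows in all. Per2 and Bhlhe40 had no entry, so their motifs are not known here. An E-box was found for Per1 and Tef, a D-box for Per3, and the ROR/REV-ERB motif for Per1, Nr1d2, Arntl and Clock. For Arntl and Clock not every window held it, and in Arntl the letters began 31 bases after a start. The full CRE letters TGACGTCA were found for 0 of the 8. Only exact letters were searched, so the search does not show that a gene lacks variant or more distant sites. Of the 27025 genes with a window, 2187 had an E-box, 299 a D-box, 4900 the ROR/REV-ERB motif and 549 the CRE.

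Bhlhe40 (ENSMUSG00000030103, chr6:108660629-108666925, plus strand), a basic helix-loop-helix repressor that is also induced by hypoxia, cytokines and serum, differed most of the 10. It had 1066 reads (26.2 FPKM) at week-0 and 44 reads (1.77 FPKM) at week-3. The level was 14.8-fold lower [10.96 to 20.5], a log2 ratio of -3.89 [-4.36 to -3.45]. At week-0 it stood above 90.1% of the expressed genes and at week-3 above 47.7%. Of all 12192 genes, 216 had a ratio as low or lower. In FPKM, Bhlhe40 stood 100.1 times above Clock at week-0 and 2.59 times above it at week-3.

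Dbp, a PAR bZIP activator whose mRNA is among the most strongly cycling in liver (ENSMUSG00000059824, chr7:45705088-45710155, plus strand), had 47 reads (1.47 FPKM) at week-0 and 12 reads (0.613 FPKM) at week-3. It was called lower, by 2.39-fold [1.25 to 4.96], a log2 ratio of -1.26 [-2.31 to -0.32]. Tef, its paralog (ENSMUSG00000022389, chr15:81802421-81826861, plus strand), had 87 reads (1.03 FPKM) and 32 reads (0.618 FPKM). Its log2 ratio of -0.73 [-1.37 to -0.13], 1.66-fold lower [1.10 to 2.58], was not called. Hlf, the other PAR bZIP gene, known as a stem cell gene in marrow, had 403 and 147 reads and a log2 ratio of -0.75 [-1.03 to -0.47]. The intervals of the 3 overlapped, and so did their shares: Hlf took 75.0% and 77.0% of the PAR bZIP reads, Tef 16.2% and 16.8%, and Dbp 8.75% and 6.28%. Dbp shares 689 bases with Sphk2 on the opposite strand, which had 230 and 189 reads and a log2 ratio of 0.43.

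Among the genes next to the clock genes, Vamp2, which ends 2832 bases before Per1, was called lower (586 and 143 reads, log2 ratio -1.33 [-1.60 to -1.06]), and Tmem165, 622 bases from Clock, was called higher (44 and 115 reads, 2.10 [1.58 to 2.63]). Of the 20 nearest genes with at least 20 reads, 4 were called lower (Vamp2, Cntrob, Rasip1 and Tob2) and 3 higher (Tnfrsf9, Msl1 and Tmem165). Both counts were near the shares of all genes with enough reads, 15.6% lower and 10.6% higher. Tnfrsf9, near Per3, went unread at week-0 (0 reads) and had 20 reads at week-3. The genes beside Bhlhe40, Itpr1 and Arl8b, had log2 ratios of -0.32 and 0.04, and those beside Per2, Hes6 and Traf3ip1, of 0.90 and 0.55.

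Levels between genes depend on the length used. The length implied by the deposited FPKM was within 1% of the sum of all distinct annotated exons, overlapping ones counted repeatedly, for 8476 of 12157 genes, which lowers the FPKM of genes with many transcripts (22241 bases for Clock, against 9744 for its longest transcript). Recomputed per length of the longest GENCODE M21 transcript (fragments per kilobase, scaled to total reads as FPKM is), the order at week-0 was Per1 (137), Bhlhe40 (53.9), Per3 (10.3), Per2 (6.26), Dbp (4.03), Nr1d2 (3.85), Tef (3.11), Nr1d1 (2.20), Arntl (1.85) and Clock (0.597). The first 5 were separate from each other beyond counting error, as Clock was from Arntl, while each neighbouring pair from Dbp to Arntl overlapped. At week-3, the order was Per1 (31.5), Per3 (14.5), Bhlhe40 (3.64), Nr1d2 (1.88), Tef (1.87), Arntl (1.87), Dbp (1.68), Nr1d1 (1.61), Clock (1.56) and Per2 (1.41). Per1 and Per3 were separate there from each other and from the rest. The interval of Bhlhe40 [2.64 to 4.88] did not overlap that of Nr1d2 next to it but did overlap those of Arntl [1.25 to 2.68] and Dbp [0.868 to 2.94], and the neighbours among the other 7 overlapped. On this scale the range from the highest to the lowest gene was thus narrower at week-3, with Bhlhe40 and Per2 moving into or near the group of low genes and Clock moving up to it. By the deposited FPKM, Per2 stood above Per3 at week-0 and Dbp was lowest at week-3 (0.613 FPKM), so the places of these genes depend on the length. The factors between genes given in FPKM above depend on it too. Per longest transcript, Per1 and Per2 (137 and 6.26 at week-0) stood further apart than by the deposited FPKM. For Arntl, the implied length of 2904 bases was below its longest transcript of 3995, which raises its FPKM.

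The other genes of the loops, a list of 11, were read the same way. Of the 7 with at least 20 reads, 4 were called lower and 1 higher, with a median log2 ratio of -1.07. Of all genes with enough reads, 15.6% were called lower and 10.6% higher. This list too was chosen with earlier results of these data known. The cryptochromes, partners of the PER proteins, went in opposite directions. Cry1 had 56 reads (2.92 FPKM) at week-0 and 80 reads (6.83 FPKM) at week-3, and was called higher at a log2 ratio of 1.22 [0.71 to 1.74]. Cry2 had 209 reads (4.76 FPKM) and 61 reads (2.27 FPKM), and was called lower at -1.07 [-1.50 to -0.65]. Cry1 took 21.1% [16.4 to 26.5] of the Cry reads in the week-0 library and 56.7% [48.1 to 65.0] at week-3, so both the Per and the Cry families differed in composition between the libraries.

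Bhlhe41, the paralog of Bhlhe40, was called lower on few reads, 55 and 2 (log2 ratio -4.07 [-7.15 to -2.15]), and Bhlhe40 took 95.1% and 95.7% of the reads of that pair. Rora, an activator of Arntl, had 201 and 15 reads and was called lower at -3.03 [-3.90 to -2.28]. Rorb, a relative of Rora, had 0 reads in both libraries. Ciart, a repressor of CLOCK:BMAL1 also known as CHRONO, had 83 and 24 reads and was called lower at -1.08 [-1.80 to -0.41]. Nfil3, which represses at D-boxes, had 107 and 102 reads and a log2 ratio of 0.64 [0.24 to 1.05], on the opposite side of 0 from the PAR bZIP genes. Over members of both lists, 17 of 21 genes had at least 20 reads, 9 were called lower and 2 higher, and the median log2 ratio was -1.04.

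The windows of Cry1 and Ciart are shown because both hold E-boxes, capitals in the lines below, although the genes were called in opposite directions. The 250 bases before the start are chr10:85185055-85185304 for Cry1 and chr3:95882229-95882478 for Ciart, both read from the minus strand.
Cry1: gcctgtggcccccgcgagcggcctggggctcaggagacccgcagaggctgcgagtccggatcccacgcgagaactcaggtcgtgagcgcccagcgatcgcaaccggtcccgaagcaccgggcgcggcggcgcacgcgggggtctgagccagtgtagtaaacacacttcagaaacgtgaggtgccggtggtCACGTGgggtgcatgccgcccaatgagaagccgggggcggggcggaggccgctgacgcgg
Ciart: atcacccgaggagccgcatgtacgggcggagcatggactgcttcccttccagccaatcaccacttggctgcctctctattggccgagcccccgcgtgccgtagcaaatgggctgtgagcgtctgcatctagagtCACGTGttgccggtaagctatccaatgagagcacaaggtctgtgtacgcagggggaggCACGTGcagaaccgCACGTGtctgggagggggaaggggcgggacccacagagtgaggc
The E-box of Cry1 begins 60 bases before the start, and those of Ciart 116, 58 and 44 bases before it. Of the 10 other loop genes with an entry in the promoter table, an E-box was found for 3 (Cry1, Bhlhe41 and Ciart), the ROR/REV-ERB motif for Nfil3 and the CRE for Hlf. The genes with an E-box in a window thus included genes called lower (Per1, Ciart, Bhlhe41), called higher (Cry1) and not called (Tef).

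**Figure D4:**
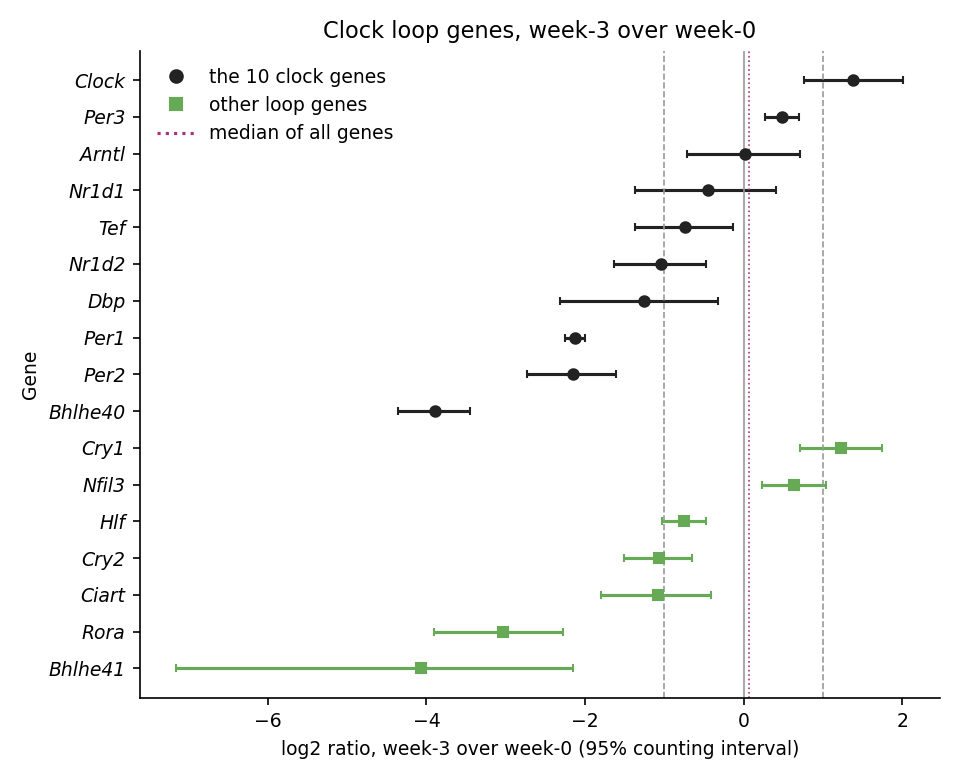
Log2 ratio of week-3 over week-0 for the clock genes and the other loop genes with at least 20 reads, with exact 95% intervals the 2-fold limits as dashed lines and the median of all genes as a dotted line. Bhlhe41 (-4.07), Bhlhe40 (-3.89) and Rora (-3.03) lie lowest, and Clock (1.38) and Cry1 (1.22) lie past the upper limit.

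Genes that modify the clock proteins were not called, whereas 15.6% of all genes with enough reads were called lower and 10.6% higher. Of 14 such kinases, ubiquitin ligase subunits and cofactors, 13 had at least 20 reads, 0 were called in either direction, and their median log2 ratio was 0.22 (range -0.51 to 0.996). Gsk3b, a kinase that acts on several clock proteins, had the most reads, 1718 and 1347 (log2 ratio 0.36 [0.26 to 0.46]). Csnk2a2, a casein kinase subunit, and Timeless were just under the upper limit at 0.996 [0.43 to 1.57] and 0.98 [0.79 to 1.18]. Both intervals reached across the limit. Fbxl21 had 10 reads and 0.

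Of 8 genes known as outputs of the clock in other tissues, 6 had enough reads. Usp2, a deubiquitinase, was called lower (352 and 85 reads, log2 ratio -1.34 [-1.70 to -0.99]), as was the zinc finger gene Klf10 (2154 and 119 reads, -3.47 [-3.75 to -3.20]). Alas1, which encodes the rate-limiting enzyme of heme synthesis outside red cells, was called higher (225 and 1247 reads, 3.18 [2.97 to 3.39]). The remaining 3, Nampt, Wee1 and Por, had log2 ratios of 0.75, -0.39 and -0.55. The median of the 6 was -0.47. Thus 2 of the 6 were called lower and 1 higher, against 15.6% and 10.6% of all genes with enough reads.

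The medians of wider annotated lists were closer to that of all genes. The deposited tables assign 29 genes to the KEGG term circadian rhythm, 6 of them among the 10, and without those, 18 had enough reads, 5 were called lower (27.8%) and 1 higher (5.56%), with a median log2 ratio of -0.25. The Gene Ontology term of the same name had 200 genes, 9 of them among the 10. Without those, 110 had enough reads, 22 were called lower (20%) and 3 higher (2.73%), and the median was 0.02, near that of all genes.

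Lists of genes induced by signals that also reach Per1 and Bhlhe40 were read beside them. All 6 genes of a cAMP/CREB list were called lower, against 15.6% of all genes with enough reads, with a median log2 ratio of -3.32. Sik1, a kinase induced by cAMP, had the most reads, 3948 and 162 (-3.90 [-4.13 to -3.67]), and the transcription factor gene Crem had 318 and 29 (-2.75). The other 4, Nr4a2, Nr4a3, Gem and Areg, stood at -2.47, -5.88, -1.86 and -5.20.

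Immediate-early genes are transcribed within minutes of a stimulus and also of tissue handling. Of 8 such genes, 7 were called lower, against 15.6% of all genes with enough reads, with a median of -1.93. Egr1 had the most reads, 41528 and 2859 (-3.15 [-3.21 to -3.10]), and Fos, with 36852 and 13025 reads (-0.79), was below 0 but not called. The others were Atf3 (-5.85), Nr4a1 (-3.84), Fosb (-2.21), Junb (-1.66), Ier2 (-1.5) and Jun (-1.004). Together these 8 genes took 3.16% of the week-0 reads and 0.876% of the week-3 reads. The range of this list, -5.85 to -0.79, was wide and held the ratios of all 5 clock genes called lower. A place within it therefore does not set a gene apart from other genes called lower.

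Glucocorticoid-responsive genes did not go one way. Of 8, Tsc22d3, Sgk1 and Errfi1 were called lower (-1.02, -1.33 and -2.91) and Fkbp5, a co-chaperone of the glucocorticoid receptor, was called higher (100 and 280 reads, 2.20 [1.86 to 2.54]), with a median of -0.22. Among all genes with enough reads, 15.6% were called lower and 10.6% higher. Tsc22d3 had the most reads, 3092 and 932. The part of these signals, of tissue handling or of the hour of collection in the levels of the clock genes was not tested.

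**Figure D5:**
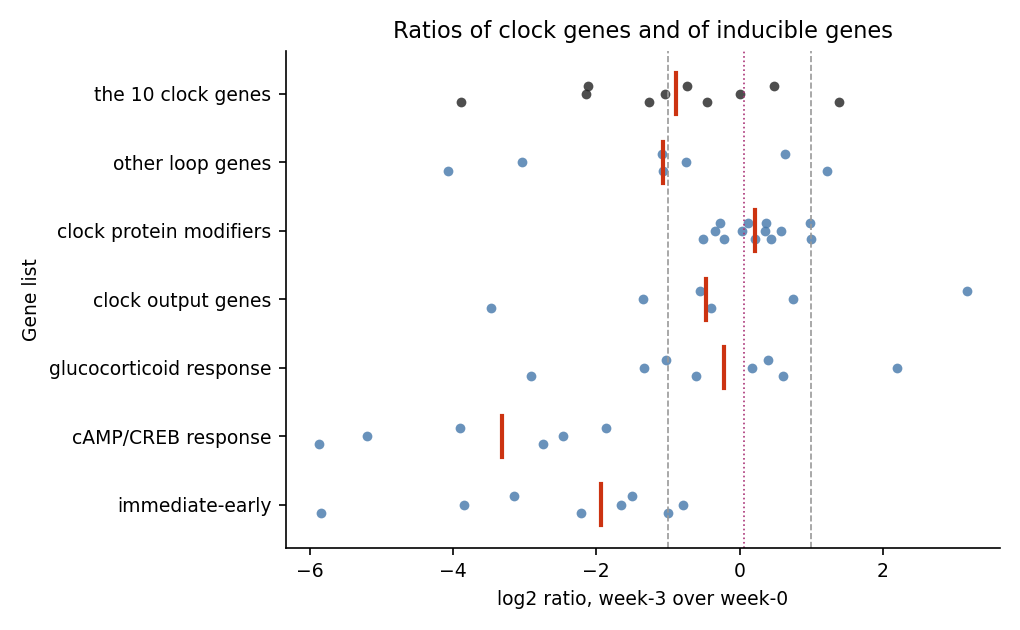
Log2 ratio of week-3 over week-0 of each gene with at least 20 reads in the fixed lists, 1 point per gene, with the median of each list as a bar, the 2-fold limits dashed and the median of all genes dotted. The medians run from -3.32 for the cAMP/CREB list and -1.93 for the immediate-early list to -0.88 for the 10 clock genes and 0.22 for the modifiers of clock proteins.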

How the data were processed

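LSKs sorted from BM of Scl/tTA-BA mice were profiled by RNA-seq, 1 library per time point from 3 mice mixed. The authors amplified cDNA with a SMARTer kit, sequenced paired ends and aligned the reads to GRCm38 (mm10) with TopHat2 2.0.9 according to the submitters' processing notes and methods. The counting tool, annotation release and strand setting are not given in the sources used here. The authors deposited counts, whole numbers of reads per gene without normalization, and FPKM scaled by exon length and total reads. Samples were grouped by their labels, and 0 columns belonged to other samples.

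Ratios were computed from the deposited counts scaled by total reads (6356164 and 3886695), without a pseudocount, over 12192 genes with at least 20 reads in both libraries together, and called at 2-fold. With 1 library per time point no test of the condition exists and no p-value is given. A ratio's 95% interval is the exact Clopper-Pearson interval of the week-3 share of a gene's reads, and a level's is the exact Poisson interval. Gene positions are those of the tables, strand and transcripts come from GENCODE M21, and promoter sequences from RefSeq.

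The 10 clock genes and the lists were chosen with earlier results of these data known. Named were all 10 members, in each list other than the cell type markers the called genes and the gene with the most reads, and genes that overlap or adjoin a member. Cell type markers are given as counts and sums, not gene by gene as the rule would have it. Names outside that rule (Kit, Ly6a, Cd34, Cd3e, Bcr, Abl1, Arntl2, Npas2, Rorb, Hlf, Nfil3, Csnk2a2, Timeless, Fbxl21, Nampt, Wee1 and Por) and the immediate-early genes not called were added after their values were seen, to account for the lists. The KEGG and Gene Ontology lists and the longest-transcript levels were chosen after seeing the data. Alternatives were TMM factors (edgeR 4.0.16) and median-of-ratios size factors (DESeq2 1.42.0), another fold limit, other read minimums, 2 stricter uses of the interval, edgeR's exact test at an assumed biological coefficient of variation (BCV) of 0.1 or 0.4, and pseudocounts of 0.1 and 1 FPKM. The scripts (R 4.3.3, Python 3.11.15, pandas 2.3.3, scipy 1.17.1) were tested on simulated data. Some list genes are not reported here by name. The study's other assays were not analysed here.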

Additional observations from a re-analysis of the deposited data

How the results depend on the processing

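The 5 clock genes called lower and the 1 called higher kept their calls under TMM and median-of-ratios scaling, under no filter or a minimum of 50 reads, under an interval on the same side of 1, and under edgeR's exact test with an assumed BCV of 0.1. A fold limit of 1.5 added Tef, for 6 lower. An interval wholly past 2-fold left 3 lower (Per1, Per2 and Bhlhe40) and 0 higher, and edgeR's exact test with a BCV of 0.4 left 1 lower (Bhlhe40) and 0 higher. Over all genes, 1903 lower and 1293 higher became 2996 and 2894 at a fold limit of 1.5, 5120 and 3920 without the filter, 926 and 450 with the interval wholly past 2-fold, and 199 and 50 with a BCV of 0.4. TMM and median-of-ratios lowered every log2 ratio by 0.08 and 0.07. The median log2 ratio of the 10 genes, -0.88, was -0.97 and -0.96 under these and -0.82 and -0.47 with pseudocounts of 0.1 and 1 FPKM. A pseudocount of 0.1 FPKM already took Nr1d2 (-0.99) inside the 2-fold limits. A pseudocount of 1 FPKM, which shrinks the ratios of low genes more, moved Per2 to -1.58 and Bhlhe40 to -3.30. It also took Dbp (-0.61), Nr1d2 (-0.70) and Clock (0.42) inside the limits. Depth limits Clock, Arntl, Dbp, Tef, Nr1d1 and Nr1d2 most, with 55 to 148 reads each over both libraries. No paired analysis was possible because each time point has 1 library, and for the same reason no library could be left out.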
